A study of Mus musculus with 5 samples.

Results

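The genes described here encode the proteins of the mitochondrial ribosome. They were taken as every gene whose name in the expression table begins with Mrpl or Mrps followed by a digit, which gave 76 genes among 22360 names: 47 large-subunit (Mrpl) and 29 small-subunit (Mrps) names. These came from 125 transcript rows, and the row with the highest mean of both libraries stood for each gene. All 76 had a mean signal of at least 1, as 12832 of the names did, so no member was lost to the filter on low values. The genes lie on 17 chromosomes and none is on the X chromosome, where Taf7l itself is.

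Testis of 3-month-old mice was used throughout. The RNA libraries were made from Taf7l-/Y males, called Taf7l KO here, and from wild-type (WT) males, with polyadenylated RNA from an equal pool of 6 individual extracts in 1 library per genotype. The chromatin immunoprecipitation (ChIP) libraries, 1 each for TAF7L, RNA polymerase II (Pol II) and non-specific IgG, carry the label wild type, although the protocol they share names chromatin of both genotypes and 10 mice. Scores are given for TAF7L and Pol II and have no separate IgG column; the labels give no strain and no description of the deleted part of Taf7l. Because pooling leaves 1 library per group, no difference below has a replicate check, and every comparison is described by its size, without a p-value.

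The mitochondrial ribosome translates the few messenger RNAs made from mitochondrial DNA, which encode core subunits of the respiratory chain and of ATP synthase. All of its proteins are encoded in the nucleus, made on cytosolic ribosomes and imported. Compared with its bacterial ancestor the particle has lost ribosomal RNA and gained protein, so its proteins fall into those with a bacterial counterpart and those found in mitochondria but not in bacteria. Male germ cells remodel their mitochondria as they differentiate, and those of the sperm end up wrapped around the midpiece of the tail. TAF7L is a germ-cell-enriched relative of TAF7, a subunit of the general transcription factor TFIID, which helps to place Pol II at gene starts.

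Expression is given as the authors' deposited signal, which has no named unit and is on the scale of RPKM (reads per kilobase of transcript, scaled to library size). Values after ± are the authors' deposited SDs, and what these were taken over is not stated; they are no spread between animals. Change means log2((KO + 1)/(WT + 1)). Taf7l, the gene targeted, had a signal of 2.04 ± 0.60 in KO testis and 13.2 ± 1.56 in WT testis. The change of all 12832 names compared had a median of 0.40, so that 72.6% of names were above 0 before any gene group was looked at.

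The libraries also differed in markers of cell types, and the part these play in the values below was not tested. The 8 late spermatid markers, protamines among them, were all at least 2-fold lower and summed to a signal of 11764 in KO testis and 65689 in WT testis. That sum was 2.37% of the total named signal in KO testis and 12.4% in WT testis. The 11 Sertoli cell markers compared were all above 0 in change and summed to 1852 in KO testis and 941 in WT testis. Of 6 spermatocyte markers 5 were above 0 and 2 at least 2-fold higher, with a median change of 0.90. Their sum, 2954 in KO testis and 3131 in WT testis, is mostly Ldhc, and without it was 647 in KO testis and 465 in WT testis. Markers of spermatogonia summed to 107 in KO testis and 46.7 in WT testis over the 5 compared of 6 listed. The 5 Leydig cell markers went both ways: they summed to 1540 in KO testis and 1911 in WT testis, mostly Insl3, and without it to 488 in KO testis and 225 in WT testis, with Cyp11a1 and Cyp17a1 at least 2-fold higher and Star at 11.7 in KO testis and 23.5 in WT testis. Of 6 genes marking epididymis, the duct next to the testis, Crisp1 had a signal of 75.9 in KO testis and 0.042 in WT testis, and Defb28 had 49.6 in KO testis and 0.183 in WT testis. Spink8 had 36.1 in KO testis and 0.44 in WT testis, Adam7 3.13 in KO testis and 0.001 in WT testis, and Lcn5 was at 0.058 in KO testis and 0 in WT testis. Cst8, which had 87.7 in KO testis and 222 in WT testis, ran the other way. The sum over the epididymis genes compared was 252 in KO testis and 222 in WT testis with Cst8, and 165 in KO testis and 0.67 in WT testis without it. Whether the KO pool held epididymal tissue was not tested. In RNA from whole testis, fewer cells of a type and less RNA per cell cannot be told apart.

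In wild-type testis most of these genes had both TAF7L and Pol II at the start. A TAF7L promoter score above 0 was given for 63 of the 76 genes (82.9%), against 47.6% of all names compared. A Pol II promoter score was given for 72 (94.7%), against 76.4% of all names. Every member with a TAF7L promoter score also had one for Pol II, so that 63 of 72 members with Pol II carried TAF7L, against 62.0% of all names with Pol II. The cytosolic ribosomal protein genes stood at 90.7% for TAF7L and the nuclear genes of the respiratory chain at 81.2%, so a high share was common to all 3 groups. Their level differed, since the median signal in WT testis was 15.3 for the mitochondrial ribosome, 216 for the cytosolic ribosome and 89.5 for the respiratory chain.

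The height of the score was less unusual than its presence. Among members with one, the TAF7L promoter score had a median of 76.3, with quartiles of 60 and 104.5, beside a median of 71.6 over all names with a score. The Pol II score had a median of 438 in members and 366 over all names. The ratio of TAF7L to Pol II score had a median of 0.180 in members and 0.141 over all names with both scores. The correlation of both scores was lower in members than over all names. Pearson r was 0.42 and Spearman rho 0.52 over the 76 genes, and 0.74 and 0.81 over all names. Scores of 0 were kept in both: 6725 of 12832 names lacked a TAF7L promoter score, against 13 of the 76 members. These values describe genes of the same libraries. Neither the contrast nor the part of the zeros in it was tested. The score is the authors' own, its scale is not defined in the files, and 0 was read as no signal assigned to that gene.

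**Figure D1:**
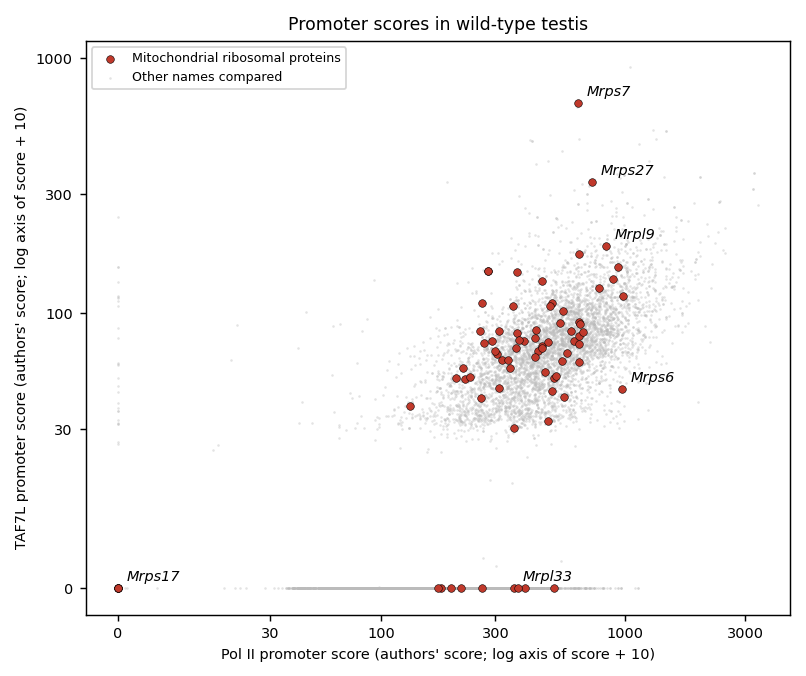
TAF7L promoter score (vertical) against Pol II promoter score (horizontal) in wild-type testis, both on log axes of the score plus 10; each red point is 1 of the 76 mitochondrial ribosomal protein genes and grey points are the other names compared. Mrps7 stands at 676 for TAF7L, Mrps27 and Mrpl9 follow at 335 and 187, and 13 genes such as Mrpl33 lie on the floor at 0.

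Mrps7 stood apart from the rest. It encodes the mitochondrial counterpart of bacterial S7, a protein of the head of the small subunit, and had a TAF7L promoter score of 676 beside a Pol II score of 646. It was the only member whose TAF7L score exceeded its Pol II score, which was so for 18 of 6080 names with both scores (0.296%). Mrps27, which encodes a small-subunit protein of the pentatricopeptide-repeat kind, came next with 335 for TAF7L and 737 for Pol II. Mrpl9 had 187 and 839, Mrpl1 174 and 651, and Mrpl18 154 and 936, for TAF7L and Pol II in that order; these encode the large-subunit proteins named after bacterial L9, L1 and L18. In all, 17 members had a TAF7L score of at least 100 and 46 had one between 30.3, the value of Mrps34, and 100. A high Pol II score did not need a high TAF7L score: Mrps6 had 970 for Pol II and 46.9 for TAF7L, whereas Mrps35 had 895 and 138.

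Many members have both promoter scores in common with a close gene. For 24 members (31.6%), against 12.4% of all names compared, both promoter scores were the same as those of a named gene within 5000 bp, so the score cannot be credited to either gene of the pair. They form 23 pairs, and in 19 of these the annotated starts face away from each other, 31 to 613 bases apart with a median of 135. Of the highest TAF7L scores, those of Mrps7 and Mrps27 are of this kind: Mrps7 shares its start region with Gga3, which encodes an adaptor of vesicle traffic, and Mrps27 with Ptcd2, another gene of a mitochondrial pentatricopeptide-repeat protein. Mrpl18 likewise shares its start with Tcp1, a gene of the cytosolic chaperonin. Mrpl46 and Mrps11 are a pair within the ribosome itself, a large-subunit and a small-subunit gene with starts 41 bases apart and 1 shared pair of scores, 148 for TAF7L and 279 for Pol II. Without the 24 sharing genes, 41 of 52 members had a TAF7L promoter score (78.8%).

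The whole stretch between both starts is shown for 3 of these pairs, as the DNA that both promoters have in common. The files do not place the scored signal within it. The sequences are from RefSeq on GRCm38.p6, plus strand, 5′ to 3′. Capitals mark matches on either strand to GGGCGG, the core of the GC box bound by Sp1, or to CCGGAAG, the core bound by ETS factors. The first is chr11:115603917-115604139, with Gga3 to the left and Mrps7 to the right, the second chr13:99344679-99344785, and the third chr7:78783090-78783130.
Mrps7-Gga3: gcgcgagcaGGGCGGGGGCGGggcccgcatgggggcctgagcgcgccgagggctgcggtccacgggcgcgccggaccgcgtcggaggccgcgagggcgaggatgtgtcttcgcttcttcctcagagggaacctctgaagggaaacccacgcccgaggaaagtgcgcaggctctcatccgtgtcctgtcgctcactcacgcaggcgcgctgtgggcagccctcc
Mrps27-Ptcd2: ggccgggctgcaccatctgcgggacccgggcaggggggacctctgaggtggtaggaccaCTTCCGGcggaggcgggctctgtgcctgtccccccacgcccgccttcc
Mrps11-Mrpl46: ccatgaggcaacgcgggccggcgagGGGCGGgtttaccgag
Between Mrps7 and Gga3 the GC-box core occurs 2 times side by side at the Gga3 end. Between Mrps27 and Ptcd2 an ETS core lies on the minus strand, and between Mrps11 and Mrpl46 there is 1 GC-box core. All 3 stretches are rich in G and C, at 72.6%, 74.8% and 73.2% in that order.

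The 13 members without a TAF7L promoter score were not all without TAF7L. In 5 of them the signal was assigned to the proximal class: Mrps17 (129), Mrpl53 (93.4), Mrpl34 (90.6), Mrpl28 (60.4) and Mrpl24 (52.3). The proximal score of Mrpl24 was given for the row used and not for its other rows. A distal score alone was given for Mrps21 (90.2), Mrpl48 (72.2) and Mrps12 (49.7), although another row of Mrpl48 had 72.2 as its promoter score. In the row used, no TAF7L score in any class was given for Mrpl14, Mrpl16, Mrpl23, Mrpl33 and Mrps23. All of these had Pol II at the promoter, with scores of 218, 264, 179, 357 and 372 in that order. Another row of Mrpl33, with a signal of 0.057 in KO testis and 0.055 in WT testis, had a distal TAF7L score of 75.3. Over all 3 classes TAF7L was scored for 71 members (93.4%), against 75.8% of all names; the proximal class held 25 members, against 28.0% of all names, and the distal class 45, against 49.7%. The files do not define the distance of any class. The 4 members without a Pol II promoter score were Mrpl24, Mrpl53, Mrps17 and Mrps21. For Mrpl24 and Mrps21 this holds for the row used, as other rows had Pol II promoter scores of 196 and 419.

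Mrpl33 is shown as an example of a start with Pol II and no TAF7L score. Its product is the counterpart of bacterial L33, and it was one of the more abundant members, with a signal of 103 ± 18.5 in KO testis and 60.5 ± 8.79 in WT testis. The line gives the 150 bases before its start on GRCm38.p6, chr5:31613801-31613950, plus strand; no motif searched lies whole within it.
Mrpl33: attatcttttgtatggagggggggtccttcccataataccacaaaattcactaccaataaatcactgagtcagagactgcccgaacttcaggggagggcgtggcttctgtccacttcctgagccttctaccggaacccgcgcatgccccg
The stretch holds 52.7% G and C. Over the whole start windows the median was 57% in members without a TAF7L promoter score and 59% in those with one, and the window of Mrpl33 does hold an ETS core, which crosses the end of the line above.

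Loss of Taf7l went with a signal that was modestly higher for most of the mitochondrial ribosome. The change was above 0 for 71 of 76 members, against 72.6% of all names, and its median was 0.62, or 0.22 above the median of all names. That gap depends on the processing, running from 0.15 after rescaling to 0.52 with no filter on low values. The median signal of members was 24.1 in KO testis (range 1.59 to 555) and 15.3 in WT testis (range 1.20 to 375). Together the 76 genes made up 0.589% of the total named signal in KO testis and 0.390% in WT testis. Without Mrpl52, whose row is a short transcript with wide SDs, the shares were 0.477% in KO testis and 0.319% in WT testis. In 53 members the KO signal was higher than the WT signal by more than both deposited SDs added, against 49.6% of all names, and in 2 it was lower by as much, against 17.1%.

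Few members moved far. At least 2-fold higher in KO testis were 4 of 76, against 7.22% of all names, and none was at least 2-fold lower, against 7.2%. The changes ran from -0.55 to 1.25, with quartiles of 0.33 and 0.82; 40 members lay between 0.5 and 1, 27 between 0 and 0.5, and 5 at or below 0. After the KO signal was rescaled so that the median change of all names was 0, the median of members was 0.15 and 47 of 76 were above 0, against 50.0% of all names. None was then at least 2-fold higher, against 0.998% of names, and Mrps36 was at least 2-fold lower, against 12.6%. The direction of a member near the median of all names therefore depends on the scaling.

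**Figure D2:**
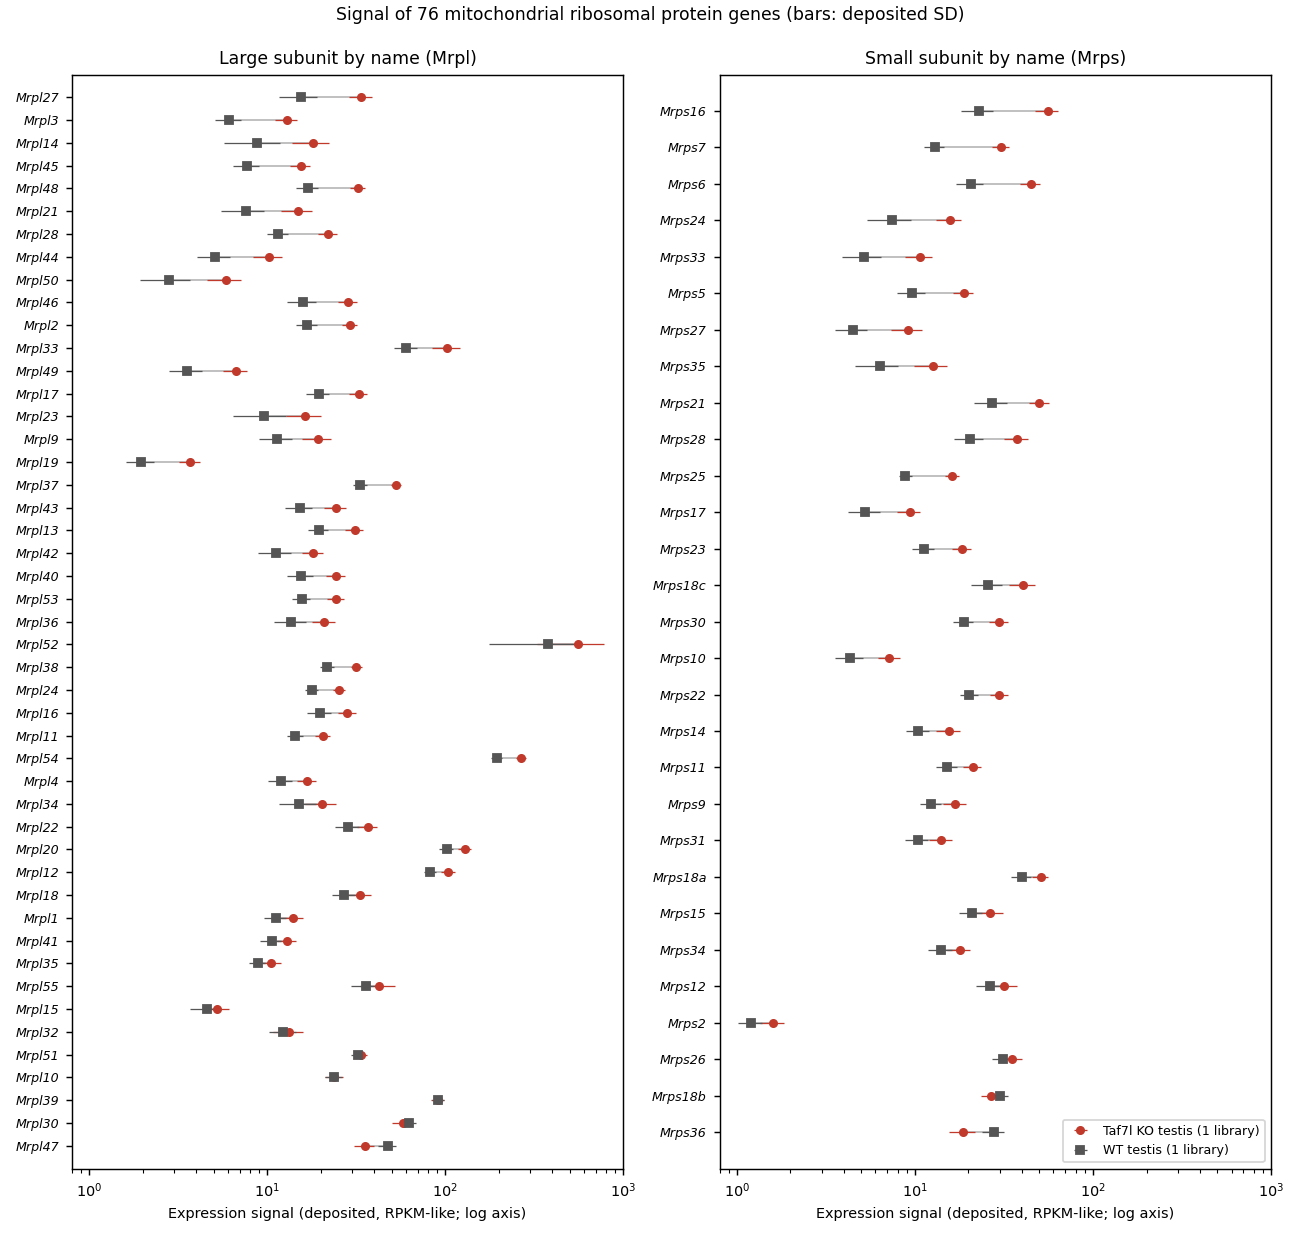
Deposited signal of each of the 76 genes (log axis) in Taf7l KO testis (red circles) and WT testis (grey squares), 1 library each, ordered by change within the large-subunit (left) and small-subunit (right) names; bars are the authors' deposited SDs. Red lies to the right of grey in all but 5 rows, and Mrpl52, at 555 in KO testis and 375 in WT testis, has the widest bars.

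The proteins past 2-fold sit in different places of the particle. Mrps16 (chromosome 14, 21210452 to 21212777, mm9), the counterpart of bacterial S16 and a component of the small-subunit body, had the largest change, with 55.6 ± 8.06 in KO testis and 22.8 ± 4.59 in WT testis, or 1.25. Mrps7 (chromosome 11, 115465464 to 115468938), the member with the outlying TAF7L score, had 30.4 ± 3.31 in KO testis and 12.9 ± 1.72 in WT testis, a change of 1.17. In both genes the gap between the libraries exceeded both deposited SDs added, as the plot of levels shows.

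The other pair past 2-fold was Mrps6 and Mrpl27. Mrps6 (chromosome 16, 92058566 to 92112472), the counterpart of bacterial S6 on the small-subunit platform, had 44.8 ± 5.67 in KO testis and 20.5 ± 3.55 in WT testis, a change of 1.09. Its span overlaps Slc5a3, an inositol transporter gene with the same promoter scores, and reads of overlapping genes may not be separated. Mrpl27 (chromosome 11, 94515104 to 94521401), whose bacterial counterpart reaches into the peptidyl transferase centre, had 33.8 ± 4.80 in KO testis and 15.4 ± 3.72 in WT testis, a change of 1.08. All 4 had a bacterial counterpart, which was not so for every member past 2-fold as a plain ratio. After rescaling their changes were between 0.61 and 0.76.

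The start of Mrps16 is shown as that of the largest change, from GRCm38.p6, chr14:20393635-20393784, minus strand, the 150 bases before the start that lies farther upstream of the 2 annotated. Its TAF7L promoter score was 67.7 and its Pol II score 587. The capitals mark a GC-box core.
Mrps16: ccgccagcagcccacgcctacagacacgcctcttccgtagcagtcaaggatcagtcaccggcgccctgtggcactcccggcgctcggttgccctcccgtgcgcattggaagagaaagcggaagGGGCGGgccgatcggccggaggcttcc

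Just under the 2-fold line were genes for other parts of the particle. Mrps24 had 15.7 ± 2.53 in KO testis and 7.46 ± 2.05 in WT testis, a change of 0.98. Mrpl3, the counterpart of bacterial L3 near the peptidyl transferase centre, had 12.9 ± 1.83 in KO testis and 6.08 ± 1.01 in WT testis, a change of 0.97. Mrpl14, whose product lies where the subunits meet and is bound by the assembly factor MALSU1 in human cells, had 18.1 ± 4.24 in KO testis and 8.79 ± 3.03 in WT testis, a change of 0.96. These lie so near the line that they pass it as plain ratios, where no 1 is added. As plain ratios 10 members were at least 2-fold higher, against 17.9% of all names, and with 0.1 added 10, against 16.3%.

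The lowest changes belonged to genes that were well expressed in the wild type. Mrps36 (chromosome 13, 101505894 to 101514614) had 18.7 ± 3.04 in KO testis and 27.9 ± 3.97 in WT testis, a change of -0.55. Its name is historical: the product is now placed in the oxoglutarate dehydrogenase complex, where it is also called KGD4, and not in the ribosome. Mrpl47 (chromosome 3, 32626418 to 32635677), the counterpart of bacterial L29 near the exit of the peptide tunnel, had 35.3 ± 4.41 in KO testis and 47.5 ± 5.44 in WT testis, a change of -0.42. In these 2 genes the KO signal was below the WT signal by more than both deposited SDs added.

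The remaining 3 at or below 0 differed little between the libraries. Mrps18b had 26.9 ± 3.37 in KO testis and 29.9 ± 3.35 in WT testis. Mrpl30 had 58.1 ± 7.70 in KO testis and 62.4 ± 6.27 in WT testis, and Mrpl39 90.8 ± 7.77 in KO testis and 91.2 ± 7.15 in WT testis. For all 3 the gap was smaller than the deposited SDs added. Mrpl10, the protein of the stalk base, was almost level too, with 23.8 ± 2.70 in KO testis and 23.7 ± 2.63 in WT testis.

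The start of Mrps36 is shown for contrast with that of Mrps16, from GRCm38.p6, chr13:100744660-100744809, minus strand. Its TAF7L promoter score was 57.9 and its Pol II score 346, so both ends of the range of change carried both scores. The capitals mark 2 GC-box cores that overlap by 1 base, at bases 102 to 107 and 107 to 112 of the stretch.
Mrps36: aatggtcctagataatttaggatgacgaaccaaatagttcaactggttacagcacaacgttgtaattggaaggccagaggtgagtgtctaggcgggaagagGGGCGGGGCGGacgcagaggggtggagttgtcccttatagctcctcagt

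Levels were spread widely over the members. Mrpl52 had 555 ± 227 in KO testis and 375 ± 199 in WT testis, but its row is a transcript of 199 bp, and its other rows lay at 35.4 to 68.7 in KO testis and 23.9 to 47.2 in WT testis. Mrpl54 had 267 ± 17.6 in KO testis and 195 ± 14.2 in WT testis, and Mrpl20, the counterpart of bacterial L20, had 129 ± 11.4 in KO testis and 102 ± 9.40 in WT testis. Mrpl12, whose product forms the stalk that recruits translation factors and is known to bind the mitochondrial RNA polymerase, had 104 ± 9.51 in KO testis and 82.1 ± 6.56 in WT testis.

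At the other end of the range was Mrps2, the counterpart of bacterial S2, with 1.59 ± 0.24 in KO testis and 1.20 ± 0.19 in WT testis. Mrpl19 had 3.68 ± 0.50 in KO testis and 1.96 ± 0.36 in WT testis. Mrpl50 had 5.85 ± 1.24 in KO testis and 2.80 ± 0.87 in WT testis, and Mrpl49 had 6.67 ± 0.99 in KO testis and 3.56 ± 0.73 in WT testis. The order of members was nearly kept between the libraries, with a Pearson r of 0.961 and a Spearman rho of 0.937 over the 76 genes, which are no independent replicates; over all names the values were 0.919 and 0.911. A row in another spelling can hold more signal than the member: MRPS17, in capitals in the files, had 30.7 in KO testis and 18.1 in WT testis, whereas Mrps17 had 9.34 in KO testis and 5.26 in WT testis. There were 6 such rows, which the choice by name leaves out.

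The change followed the level. Of 20 members with a WT signal under 10, the median change was 0.86, beside 0.52 for the 7680 names at that level. Of 43 members between 10 and 30 it was 0.54, beside 0.30 for 2667 names, and of 13 members at 30 or more it was 0.33, beside -0.04 for 2485 names. At each level the members' median lay above that of all names. Under 10 the median WT signal was 5.67 in members and 3.00 in all names. Adding 1 shrinks changes more at lower signals, and its part in that gap was not tested. The WT signal enters both the level and the change, so part of the slope is built in; over members the Pearson r of change with log2 WT signal was -0.36 and over all names -0.38.

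Both subunits had a median change above the 0.40 of all names. The 47 large-subunit names had a median signal of 24.4 in KO testis and 15.4 in WT testis, and a median change of 0.58 with 1 member past 2-fold. The 29 small-subunit names had a median signal of 18.9 in KO testis and 14.0 in WT testis, and a median change of 0.63 with 3 past 2-fold. All of these were higher, as were 7.22% of all names by at least 2-fold. After rescaling the median change was 0.11 for large-subunit and 0.16 for small-subunit names. A TAF7L promoter score was given for 38 large-subunit names (80.9%) and 25 small-subunit names (86.2%). The names do not match the particle in every case, since the products of Mrps18a and Mrps30 have been located in the large subunit.

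The members were also split by the number in their names, as a stand-in for evolutionary origin. This was done after the values were seen, with no test of the difference. The number may not match the origin in every case, and Mrps36, not placed in the ribosome, is counted as mitochondria-specific. Of 29 mitochondria-specific members, 26 had a TAF7L promoter score (89.7%), and their median change was 0.64 with none past 2-fold. Of 47 members with a bacterial counterpart, 37 had a score (78.7%), and their median change was 0.49 with all 4 genes past 2-fold. Mitochondria-specific genes near the top of the range include Mrps33, with 10.7 ± 1.86 in KO testis and 5.18 ± 1.29 in WT testis, and Mrpl45, which encodes a protein that helps tether the ribosome to the inner membrane, with 15.4 ± 2.04 in KO testis and 7.73 ± 1.32 in WT testis. Mrpl44, a protein with a ribonuclease III-like fold, had 10.2 ± 1.90 in KO testis and 5.10 ± 1.05 in WT testis. These 3 were named after their values were seen.

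The 3 Mrps18 paralogues descend from 1 bacterial S18 gene, and their products occupy different places, with that of Mrps18a in the large subunit. Mrps18c had 40.5 ± 6.78 in KO testis and 25.6 ± 5.05 in WT testis, a change of 0.64. Mrps18a had 50.8 ± 5.37 in KO testis and 40.0 ± 5.18 in WT testis, a change of 0.34, and Mrps18b, with 26.9 in KO testis and 29.9 in WT testis, had -0.15. These differences between paralogues were not tested. In the wild type Mrps18b had the highest Pol II promoter score of all members, 977, with 118 for TAF7L; Mrps18a had 788 and 127 and Mrps18c 298 and 69.3, for Pol II and TAF7L in that order.

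A promoter score for TAF7L did not sort the members by change. The 63 with a score had a median change of 0.56 and the 13 without one 0.72, while over all names the medians were 0.43 with a score and 0.37 without. None of the 13 was past 2-fold, where 7.22% of all names were at least 2-fold higher and 7.2% lower. They ran from 0.26 in Mrps12 to 0.96 in Mrpl14, which as a plain ratio was 2.06. Over the 76 members the change and the TAF7L score had a Pearson r of 0.11 and a Spearman rho of -0.11. The 17 members with a score of at least 100 ranged in change from -0.42 in Mrpl47 to 1.17 in Mrps7. Among those with the highest scores Mrps27 had 9.12 ± 1.81 in KO testis and 4.47 ± 0.90 in WT testis, while Mrpl1 had 13.9 ± 1.93 in KO testis and 11.2 ± 1.61 in WT testis.

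**Figure D3:**
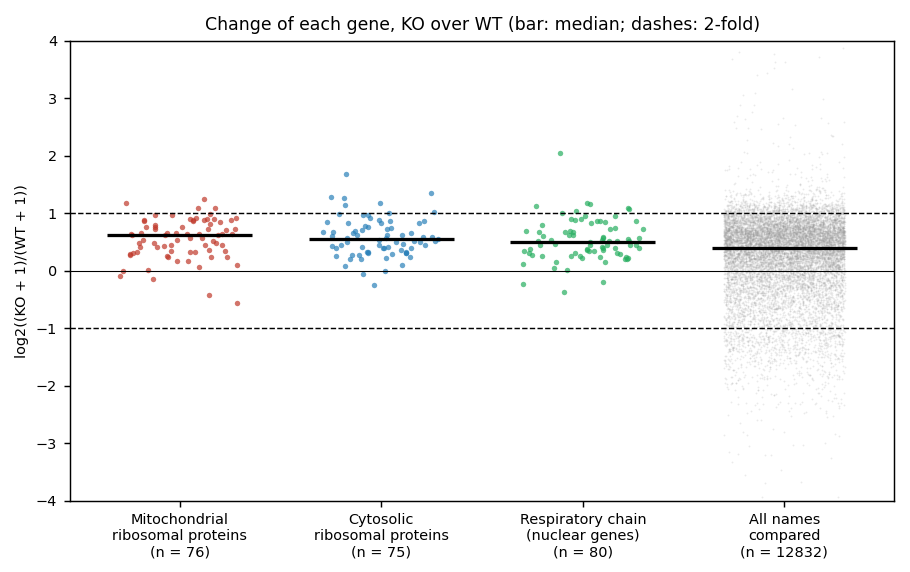
Change of each gene, log2((KO + 1)/(WT + 1)), for mitochondrial ribosomal proteins, cytosolic ribosomal proteins, nuclear genes of the respiratory chain and all names compared; each point is 1 gene, thick bars are medians and dashed lines mark 2-fold. The medians are 0.62, 0.54, 0.50 and 0.40 from left to right, and 36 names with a change beyond 4 in size lie outside the axis.

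The cytosolic ribosome and the respiratory chain were close to the mitochondrial ribosome in change. The 75 cytosolic ribosomal protein genes had a median change of 0.54 and a median signal of 302 in KO testis and 216 in WT testis. The 80 respiratory chain genes compared had a median change of 0.50 and a median signal of 119 in KO testis and 89.5 in WT testis. In each group 8 genes were at least 2-fold higher, against 7.22% of all names, and none was lower, against 7.2%. After rescaling, 1 gene of each group was at least 2-fold higher, against 0.998% of names. With 1 library per genotype the differences between these medians could not be tested.

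Other genes of mitochondrial translation, from lists of further ribosomal proteins, translation factors, assembly factors and tRNA charging, were mostly above 0 as well. Of 54 found, 51 could be compared, with a median change of 0.59. Past 2-fold were 2 higher genes, against 7.22% of all names, and 1 lower gene, against 7.2%. Mpv17l2, an assembly factor of the mitochondrial ribosome, had 15.5 ± 3.58 in KO testis and 6.12 ± 2.03 in WT testis, a change of 1.21. Ict1, a peptidyl-tRNA hydrolase built into the large subunit, had 10.2 ± 1.84 in KO testis and 4.23 ± 1.03 in WT testis, a change of 1.10. The other ribosomal proteins not named Mrpl or Mrps were 6, all above 0, among them Dap3, a GTP-binding protein of the small subunit, with 29.1 ± 1.21 in KO testis and 21.7 ± 1.04 in WT testis.

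The lower gene was Nsun4. This ribosomal RNA methyltransferase gene, whose product also takes part in joining the subunits, had 6.23 ± 0.53 in KO testis and 30.8 ± 1.21 in WT testis, a change of -2.14. Of 7 genes compared that copy or express mitochondrial DNA itself, Tfam alone was past 2-fold. Its product packages mitochondrial DNA and starts its transcription, and it had 4.38 ± 0.43 in KO testis and 13.6 ± 0.86 in WT testis, a change of -1.44. Nsun4 and Tfam both had a TAF7L promoter score in wild-type testis, 58.8 for Nsun4 and 106 for Tfam. Both remained past 2-fold after rescaling, at -2.55 and -1.82. The late spermatid markers were lower in the same library, and their part in these 2 decreases was not tested.

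Factors that act on the ribosome were spread around the members' median. The 9 translation factors compared had a median change of 0.59. Tsfm, the exchange factor of the mitochondrial elongation factor Tu, had 7.16 ± 1.54 in KO testis and 3.54 ± 1.03 in WT testis, a change of 0.85, and Mrrf, which recycles ribosomes after termination, had 13.5 ± 1.72 in KO testis and 16.2 ± 1.94 in WT testis, a change of -0.25. The 15 mitochondrial aminoacyl-tRNA synthetase genes compared had a median of 0.57 with none past 2-fold, and 3 subunit genes of the glutamyl-tRNA amidotransferase had a median of 0.39. Lars2, the leucyl-tRNA synthetase, had the highest signal of them, 225 ± 8.61 in KO testis and 155 ± 3.72 in WT testis.

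The close genes with the same promoter scores as a member were set beside it. For Mrpl10 and Lrrc46, Mrpl13 and Mtbp, Mrps34 and Eme2, and Mrps6 and Slc5a3, no starts facing away from each other were found. None of the partners was at least 2-fold higher, against 7.22% of all names, or at least 2-fold lower, against 7.2%. Of 24 partners 22 were above 0, against 72.6% of all names, with Mrpl46 and Mrps11 each counted as partner of the other. The partners had a median change of 0.50 and the members of these pairs 0.65. Each partner's change is from its row with the highest mean, which need not be the row with the shared scores. Mrpl43 and Twnk, the gene of the mitochondrial DNA helicase, had changes of 0.64 and 0.65. The Twnk row used had promoter scores of 70.9 for TAF7L and 129 for Pol II, unlike those of Mrpl43. The spans of both genes overlap, and reads of overlapping genes may not be separated. In the pair of Mrpl46 and Mrps11 the large-subunit gene had 28.4 ± 3.46 in KO testis and 15.9 ± 2.88 in WT testis, and the small-subunit gene 21.1 ± 2.54 in KO testis and 15.2 ± 1.97 in WT testis, changes of 0.80 and 0.45.

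In 1 pair, Mrps7 and Gga3, the changes differed by more than 1. Gga3 had 24.5 ± 15.2 in KO testis and 27.4 ± 15.0 in WT testis, a change of -0.16 with deposited SDs that far exceed the gap, beside 1.17 for Mrps7. In other pairs the partner had the larger change: Mrpl32 had 0.10 and Psma2, a proteasome subunit gene, 0.92; Mrpl47 had -0.42 and Ndufb5, of respiratory complex I, 0.26. Mrpl10 and Lrrc46 were both low, at 0.01 and -0.51. The rule that finds the pairs was set after values were seen.

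**Figure D4:**
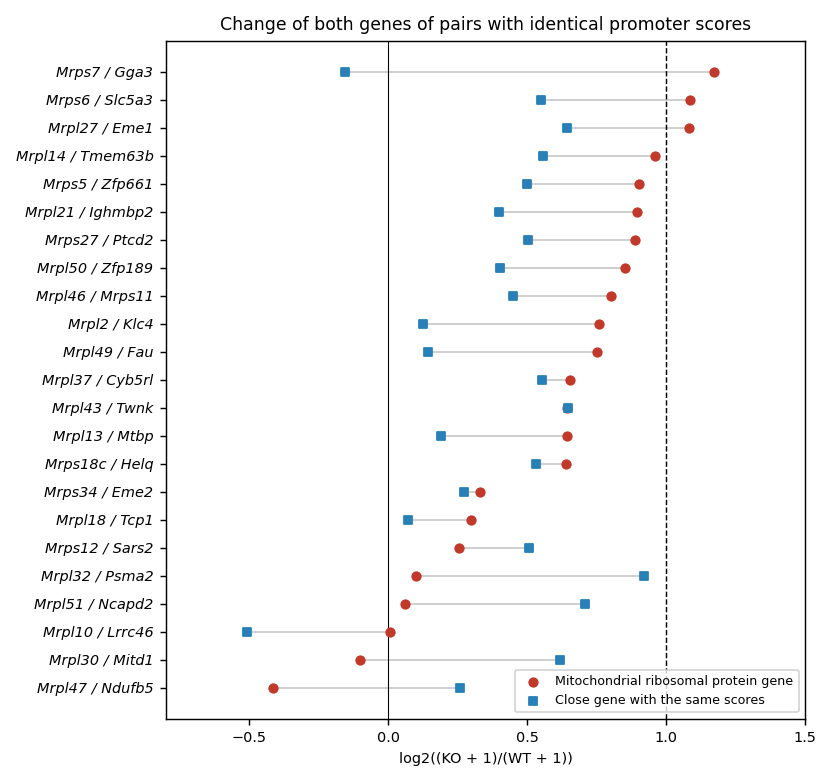
Change, log2((KO + 1)/(WT + 1)), of the mitochondrial ribosomal protein gene (red circles) and of the close gene with the same promoter scores (blue squares) in each of 23 pairs, ordered by the red value; the dashed line marks 2-fold higher. Partners lie between -0.51 and 0.92, and the longest line joins Mrps7 and Gga3. Each partner is shown by its row with the highest mean, which need not be the row with the shared scores.

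The start windows were searched for short motifs on both strands, in 300 bases from 250 before to 50 after each RefSeq start on GRCm38.p6. A window was found for 67 of the 76 members; those without one were Mrpl4, Mrpl13, Mrpl15, Mrpl19, Mrpl38, Mrpl54, Mrps28, Mrps34 and Mrps35. The ETS core CCGGAAG was held by 24 members (35.8%), against 19.8% of the 9808 names compared that had a window. The NRF1 motif, GCGC and GCGC parted by any base and T, belongs to a factor known for driving nuclear genes of mitochondria. It was held by 12 (17.9%), against 11.7%, and the YY1 motif GATGGCG by 8 (11.9%), against 7.22%. The GC-box core GGGCGG was held by 33 (49.3%), against 65.0%, and the TATA motif TATAAA by 5 (7.46%), against 8.91%. No motif searched contains another, though matches may overlap in a window. A gene could have several windows, with 73 for the 67 members and 12299 for the 9808 names. The part of this in the shares was not tested.

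The cytosolic ribosomal protein genes had the ETS core in 41.8% of windows and the NRF1 motif in 7.27%, and the respiratory chain genes had 23.9% and 25.4%. Members lay between both groups for these 2 motifs. Windows of members had a median G and C content of 58.3%, beside 60% for all names compared. Among the members past 2-fold, the ETS core was in the windows of Mrps16 and Mrpl27 and the GC-box core in those of Mrps16, Mrps6 and Mrps7. A match is a string of letters and shows no binding.

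**Figure D5:**
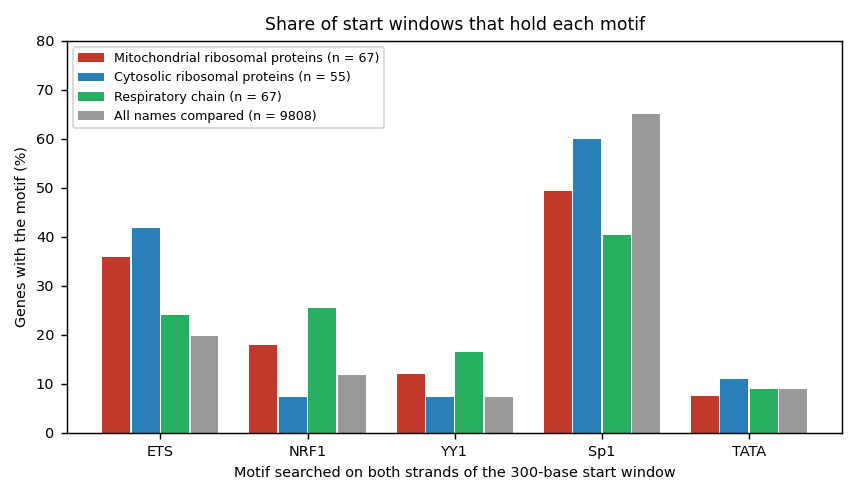
Share of genes (%) whose start window holds each of 5 motifs, for mitochondrial ribosomal proteins, cytosolic ribosomal proteins, respiratory chain genes and all names compared (bars from left to right). For the ETS core the bars stand at 35.8, 41.8, 23.9 and 19.8, and for the GC-box core at 49.3, 60, 40.3 and 65.0.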

How the data were processed

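RNA and ChIP libraries of mouse testis were taken from the authors' processing, with 1 library per group. Per the submitters' processing notes, reads were aligned to mm9 with Bowtie, and with TopHat and Cufflinks for RNA; no source used here gives versions or strandedness. The labels give 100 to 200 M reads per RNA library (M being 1e+06); ChIP depth is not given. The deposited expression table holds, per the file headers, a mean signal, its SD, a log2 ratio of WT to KO and a ratio of SD to mean for 55350 transcripts; the authors' log2 and ratio columns were not used. The deposited binding table holds the authors' TAF7L and Pol II scores in promoter, proximal and distal classes, matched by transcript.

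Names were kept if the RefSeq table of symbols holds them (46993 rows), and 8357 rows were left out. Each name was represented by its row with the highest mean. Changes used log2 with 1 added, so changes of low genes are understated, and the comparison kept names whose mean reached 1. Calls were at 2-fold, and no test was possible. The code was tested on simulated data. The members, lists and named-gene rule were chosen with earlier results of these data known. By that rule the members at the extremes of level, change and score are named, with those that share or lack a score and the Mrps18 paralogues. Promoter windows are from RefSeq on GRCm38.p6, and positions of genes are from the files. Calculations used Python 3.11.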

Additional observations from a re-analysis of the deposited data

How the results depend on the processing

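The number of members at least 2-fold higher was 4 as reported, 10 with 0.1 added in place of 1, against 16.3% of names, and 10 with nothing added, against 17.9%; the genes gained without any addition were Mrpl14, Mrpl3, Mrpl50, Mrps24, Mrps27 and Mrps33. Rescaling the KO signal to a median change of 0 for all names gave 0 members higher, 1 lower and a median of 0.15. Leaving out late spermatid markers and scaling both libraries to the same total, chosen after the data were seen, gave 4 higher, 0 lower and a median of 0.56. Under the other alternatives (filters, transcript rows summed or averaged, no overlapping genes, without Mrpl52) 3 to 5 were higher, none was lower, and the median lay between 0.56 and 0.62. The gap between the medians of members and of all names was 0.22 as reported, 0.52 with no filter, 0.28 with a mean of at least 5, 0.16 with nothing added and 0.15 after rescaling. A TAF7L promoter score of at least 71.6, the median over all names, was held by 36 members, against 23.8% of names, and a Pol II score of at least 366 by 44, against 38.2%. Of the 52 members sharing no scores, 41 had TAF7L and 48 had Pol II. Taking any transcript row added Mrpl48 to the members with TAF7L, and Mrpl24 and Mrps21 to those with Pol II. Rescaling moved 46 of 50 named members by more than their deposited SDs. No paired analysis was possible because each genotype has 1 library, and for the same reason no library could be left out. Depth may limit the values of the lowest members, which was not tested, and no depth is given for the ChIP scores.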
